A study of Mus musculus with 15 samples.

Results

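The genes described here are the mouse zinc finger genes whose symbol is Zfp followed by a number only. Of 362 protein-coding genes with such a symbol, 180 reached a mean of 5 CPM (counts scaled for library size, here by the trimmed mean of M-values, TMM) over all 15 libraries and form the set. Zfp36, Zfp42 and Zfp281 were left out by the rule that defined the set. The level over all libraries chose the members, so that level is a description and carries no test. All 180 passed the filter on low counts, and they are 180 of the 13451 genes tested and of the 52636 identifiers in the count table. Just inside the threshold lay Zfp788 with a mean of 5.09 CPM, Zfp398 with 5.14 and Zfp839 with 5.20, and just outside it lay Zfp120 with 4.92, Zfp87 with 4.86 and Zfp933 with 4.79. The other 182 genes stayed below 5 CPM, 52 of them below 1 CPM and 6 of them without a count. The mean level of the members ran from 5.09 to 178 CPM with a median of 12.6 CPM. Over the 11 libraries that are not 4h, 171 members also averaged 5 CPM or more. The other 9 (Zfp51, Zfp184, Zfp239, Zfp296, Zfp467, Zfp493, Zfp808, Zfp870 and Zfp982) passed only through the 4h libraries, where they were high. Their values in comparisons with 4h are therefore descriptions and support nothing. Of these 9, 6 were called higher in 4h vs 0h, and the counts and medians below include all 9 unless stated.

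A C2H2 zinc finger is a short fold held by a zinc ion that reads a few bases of DNA, and proteins of this class carry many such fingers in a row, joined by a conserved linker. A large branch of the family also carries a KRAB domain, which recruits the corepressor Trim28 and with it the histone methyltransferase Setdb1. These KRAB zinc finger proteins silence retrotransposons and hold imprints in pluripotent cells, and their genes lie in clusters of recent duplicates, one of the largest of them near the distal end of mouse chromosome 4. Other members of the set have no KRAB domain and act in splicing, in ribosome quality control or as partners of corepressor complexes. Messenger RNAs of transcriptional regulators, zinc finger genes among them, are often short-lived.

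RNA was sequenced from epiblast-like cells (EpiLCs), the in vitro counterpart of the early postimplantation epiblast, of the mouse line CRAFR26, in which a c-RAF-ER fusion switches on ERK signalling when 4-hydroxytamoxifen (4OHT) is added. All cells grew for 48 h in EpiLC medium with bFGF (12 ng/ml), Activin A (20 ng/ml) and XAV939 (1 µM), and every group, 0h included, received the FGF receptor inhibitor PD17 (250 nM), given 2 h ahead of any 4OHT. The groups were 0h with no 4OHT (n = 3), 2h and 4h with 4OHT (250 nM) for those times (n = 4 each), and rev with 4 h of 4OHT and a MEK inhibitor for 2 h after it (n = 4). Libraries came from clone 4 and clone 8 of the line, 2 of each per group except at 0h, where 1 of clone 4 and 2 of clone 8 remained after the authors had discarded a sample, so that every comparison with 0h in clone 4 rests on 1 library. The model is thus 1 engineered line in 2 clones, and the comparisons of times carry the drug exposures with them. The labels do not say whether same-clone samples were separate cultures, so p-values measure the spread between these samples, which may be technical. In bulk RNA, fewer cells that express a gene and less RNA per cell cannot be told apart.

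The libraries at 4h stood apart in depth and RNA composition. Their totals lay between 1552022 and 6658950 counts, against 8667880 to 13004556 in the other groups, and mitochondrial genes took 9.39% ± 2.32 (SD, n = 4) of their counts, against 3.35% ± 0.607 (n = 3) at 0h, 4.76% ± 2.06 at 2h and 5.20% ± 1.36 in rev (n = 4 each). The ERK output gene Dusp6 rose from a mean of 3.35 CPM at 0h to 152 at 2h and stood at 57.4 at 4h and came to 19.9 in rev. The defining EpiLC and pluripotency markers, all 6 of them tested, summed to between 1160 and 1399 CPM at 0h and to between 681 and 761 CPM at 4h. Most of that sum is Dnmt3b, whose mean was 935 CPM at 0h and 416 at 4h, and Pou5f1 went from 168 to 99.0, while Sox2 of the same list went the other way, from 22.3 to 111 CPM, and Otx2 from 12.3 to 25.1. The 5 naive markers summed to between 12.4 and 16.1 CPM at 0h and between 31.1 and 136 CPM at 4h, and the 3 neural markers to between 5.40 and 10.9 and between 43.4 and 55.8 CPM. All 5 naive means were higher at 4h, unevenly: Esrrb went from 3.29 to 42.9 CPM and Klf4 from 1.72 to 2.57. Of the neural markers, Sox1 went from a mean of 2.96 to 32.1 CPM and Pax6 from 0.785 to 10.9, while Neurod1 was at 4.76 and 4.90. Primitive endoderm, mesendoderm and feeder markers stayed under 16 CPM in sum in every library, and the feeder marker Col1a2 was at 0 in all 4h libraries. Depth, mitochondrial share and these markers move with the 4h group, and their part in the results below was not tested except where a value is given.

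The sequences that mark these genes come first. The linker between fingers was searched in the coding strand of the representative GENCODE M21 transcript as the letters AC, GG, GA, AA and CC, each parted from the next by 1 base of any kind. It occurred in 122 of the 180 members (67.8%) and in 2.38% of 21819 protein-coding genes. In the members, 586 pairs of successive linkers were found, 64.5% of them spaced by exactly 84 bases, the length of 1 finger with its linker, and 92.5% by a multiple of it. The 3 stretches below show 2 fingers each, with the linkers in capitals, and were chosen because they come from members that rose at 4h. Zfp985 and Zfp981 lie in the chromosome 4 cluster and Zfp936 lies in a chromosome 7 cluster. Positions count from the first base of the transcript.
Zfp985, bases 1105 to 1286 of 2762: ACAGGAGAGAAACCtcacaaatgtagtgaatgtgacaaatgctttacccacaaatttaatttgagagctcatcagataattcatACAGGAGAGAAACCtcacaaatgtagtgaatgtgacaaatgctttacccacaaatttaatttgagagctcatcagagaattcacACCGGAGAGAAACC
Zfp981, bases 1049 to 1230 of 3038: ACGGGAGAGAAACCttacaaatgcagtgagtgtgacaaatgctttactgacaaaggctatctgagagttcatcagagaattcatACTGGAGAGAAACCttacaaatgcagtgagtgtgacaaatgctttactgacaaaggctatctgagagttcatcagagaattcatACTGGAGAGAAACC
Zfp936, bases 879 to 1060 of 3112: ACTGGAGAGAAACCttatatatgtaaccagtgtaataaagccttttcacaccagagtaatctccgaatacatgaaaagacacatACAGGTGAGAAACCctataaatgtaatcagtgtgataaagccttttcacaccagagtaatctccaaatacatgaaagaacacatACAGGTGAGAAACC
Repeats of this kind recur within and between members. Of the 50-base words of their transcripts, the 12 members of the chromosome 4 cluster shared between 11.9% (Zfp982) and 83.3% (Zfp600) with another gene, with a median of 48.8%. How the authors' counting placed reads that match several such genes is not given in the sources used here, so values of single members of that cluster are uncertain.

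Upstream sequences were read from RefSeq (GRCm38.p6) for the 250 bases before each annotated start. They matched 146 of the 180 members with 189 windows, and 9 of the 12 chromosome 4 members with 12 windows. A run of 15 letters, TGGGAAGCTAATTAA, was the longest that all 9 of these genes shared. Searched on both strands, it occurred in 12 of 32851 windows (0.0365%), 1 each of the 9 members and of Gm13212, Rex2 and Zfp987, which lie in the same interval of chromosome 4 and are no members. The run was looked for after the values had been seen, and its occurrence is a description; whether any factor binds it was not tested. The windows of 4 members are printed with the run in capitals, on the strand of the gene.
Zfp600, chr4:146156577-146156826, plus strand: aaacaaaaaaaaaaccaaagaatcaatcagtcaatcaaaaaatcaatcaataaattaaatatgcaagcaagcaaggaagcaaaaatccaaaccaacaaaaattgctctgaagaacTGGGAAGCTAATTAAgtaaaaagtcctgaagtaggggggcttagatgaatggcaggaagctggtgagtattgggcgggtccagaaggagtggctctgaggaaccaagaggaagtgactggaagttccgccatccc
Zfp979, chr4:147642509-147642758, minus strand: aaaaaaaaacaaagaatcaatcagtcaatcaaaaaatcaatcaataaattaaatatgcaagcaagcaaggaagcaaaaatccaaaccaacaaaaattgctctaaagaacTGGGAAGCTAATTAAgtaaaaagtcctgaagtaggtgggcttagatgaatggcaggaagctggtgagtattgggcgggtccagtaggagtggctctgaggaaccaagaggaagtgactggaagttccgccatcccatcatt
Zfp981, chr4:146514670-146514919, plus strand: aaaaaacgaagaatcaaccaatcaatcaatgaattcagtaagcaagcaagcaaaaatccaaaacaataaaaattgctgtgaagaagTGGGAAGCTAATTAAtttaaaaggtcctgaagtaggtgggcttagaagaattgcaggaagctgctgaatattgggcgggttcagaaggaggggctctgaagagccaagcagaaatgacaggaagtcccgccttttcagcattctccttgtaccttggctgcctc
Zfp984, chr4:147809789-147810038, minus strand: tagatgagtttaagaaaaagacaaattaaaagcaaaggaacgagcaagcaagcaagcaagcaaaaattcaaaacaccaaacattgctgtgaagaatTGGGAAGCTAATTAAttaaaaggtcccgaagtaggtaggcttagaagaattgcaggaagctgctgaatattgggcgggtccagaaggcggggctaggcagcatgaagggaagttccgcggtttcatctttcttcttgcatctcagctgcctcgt
Zfp600 and Zfp979 were 94.1% identical over these windows, and Zfp980 was 89.0% identical to Zfp979. The windows of the chromosome 4 members had a median GC content of 41.2%, against 56% over all member windows and 52.4% over all windows of the table. None of the 12 chromosome 4 windows held the letters of the AP-1 (TGANTCA), ETS (CCGGAAGT), Esrrb (TCAAGGTCA), octamer (ATGCAAAT), KLF (GGGNGTGG) or STAT (TTCCNGGAA) motif on either strand. Over all member windows these letters were held by 4.23%, 8.47%, 0.529%, 2.65%, 18.0% and 2.65%, in that order, against 6.75%, 2.88%, 0.387%, 1.6%, 15.9% and 0.913% of all windows.

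From 0h to 4h, more members were higher than lower: 65 of 180 passed edgeR's quasi-likelihood test with Benjamini-Hochberg adjusted p under 0.05 as higher and 22 as lower. Of all genes tested, 20.5% were called higher and 18.9% lower, so the share of members called higher, 36.1%, lay above the background and the share called lower, 12.2%, below it. The median log2 fold change of the members was 0.19, beside 0.03 over all genes, on TMM scaling, and scaling to total counts turned it to -0.55 while it moved the median of all genes to -0.73. The difference between the medians was 0.18 on that scaling, which called 12 members higher and 72 lower. Without the 9 members that passed the threshold only through 4h, 59 of 171 were higher and 22 lower, with a median of 0.14 on TMM scaling. Between 2h and 4h, 65 members were higher and 19 lower, with 19.7% and 19.2% of all genes called, and the median was 0.16, which turned to -0.39 on total counts, where the median of all genes stood at -0.57. Thinned to the smallest total, the 4h vs 0h comparison still called 43 members higher and 11 lower. The groups did not overlap for 61 members that were higher in every 4h library than in every 0h library, with 18.2% of all genes doing so, and for 22 that were lower, with 18.1%. In 2h vs 0h 22 members were higher without overlap and 20 lower, with 10.1% and 8.99% of all genes, and in rev vs 4h 9 and 37, with 11.9% and 10.8%. On TMM scaling the members' summed level was 3442 ± 47.1 CPM (SD, n = 3) at 0h and 3515 ± 213 at 2h, then 4393 ± 186 at 4h, and 3570 ± 135 in rev (n = 4 each). As a plain share of all counts the order was the opposite, from 0.436% ± 0.110 (n = 3) before 4OHT through 0.391% ± 0.0779 at 2h and 0.363% ± 0.0619 in rev to 0.342% ± 0.0720 at 4h (n = 4 each), and the libraries of 0h and 4h overlapped.

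After 2 h of 4OHT few genes were called against 0h, among the members and among all genes tested. Of the 180 members 7 were higher and 10 lower than at 0h, with 3.98% and 2.46% of all genes called, and the median was -0.01. The share of members called higher lay near that of all genes, and the share called lower lay above it. From 4h to rev, 14 members were higher and 49 lower, with 15.1% and 15.6% of all genes called, and the median was -0.09 on TMM scaling and 0.32 on total counts, where the median of all genes was 0.45. Between 0h and rev, 13 members were higher and 6 lower, with 6.49% and 4.66% of all genes called, and the median of 0.06 turned to -0.25 on total counts and to -0.07 after correction for GC content. The comparisons share their 0h, 4h or rev libraries, so a rise to 4h and a fall after it are not independent of each other.

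**Figure D1:**
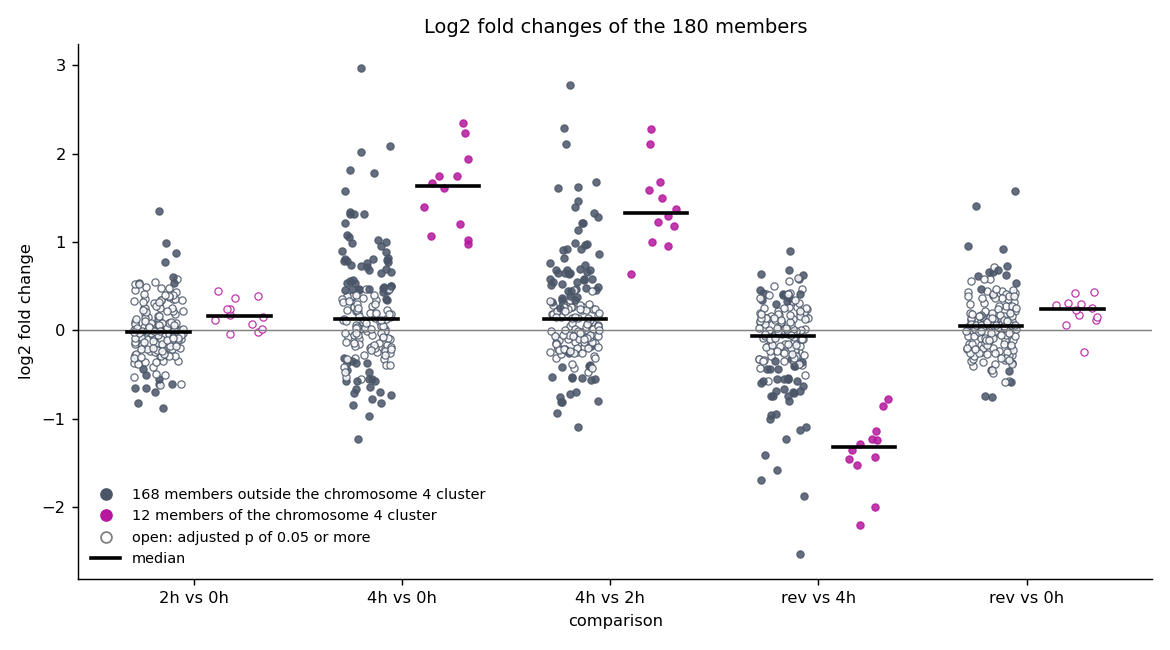
Log2 fold change (TMM scaling) of each of the 180 members in 5 comparisons of groups, filled where edgeR called the member, with the 12 members of the chromosome 4 cluster in magenta and the median as a bar. The cluster lies at the upper end in both comparisons of 4h with an earlier group and at the lower end in rev vs 4h. On total count scaling the median over all 180 members takes the opposite sign in every comparison but 2h vs 0h. The cluster's own median keeps its sign at 4h, with 0.89 against 0h and 0.79 against 2h, and keeps it from 4h to rev (-0.88). It turns between 0h and 2h (-0.059) and between 0h and rev (-0.053).

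Among 12 groups of at least 4 neighbouring members, the chromosome 4 cluster was the one in which every member was called in 4h vs 0h. Its 12 members lie at chr4:145510759-147809788 (mm10), an interval of 2.30 Mb. They were grouped by position, with gaps of at most 1 Mb, after their values had been seen. Among them is Zfp982, which passed the level threshold only through 4h. All 12 were higher at 4h than at 0h (median 1.64, from 0.98 to 2.35 on the log2 scale), all 12 were higher than at 2h (median 1.33), and all 12 were lower in rev than at 4h (median -1.32). None was called at 2h or in rev against 0h, where the medians were 0.16 and 0.24. Those 2 medians turned after correction for GC content (-0.14 and -0.062, with 1 member called lower in rev vs 0h) and on total counts (-0.059 and -0.053). Their summed level was 131 ± 8.50 CPM (SD, n = 3) at 0h, 155 ± 39.2 at 2h, 434 ± 89.4 at 4h, and it came to 156 ± 28.6 in rev (n = 4 each). They made up 3.80% ± 0.203 of the members' summed CPM at 0h and 9.82% ± 1.63 at 4h.

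Within the cluster, Zfp981 (chr4:146502027-146539395, plus strand) had the largest log2 fold change in 4h vs 0h and in rev vs 4h, while Zfp978 had the larger one in 4h vs 2h (2.28 against 2.105). Its level was 15.4 CPM in the clone 4 library and 15.8 and 14.2 in the clone 8 libraries at 0h. With clone 4 before clone 8, it was 17.7, 26.7, 18.4 and 12.3 CPM at 2h, 64.1, 74.3, 80.4 and 95.0 at 4h, before a return to 20.1, 24.6, 11.4 and 14.5 in rev. Every 4h library lay above every other library, and the other 3 groups overlapped. The log2 fold change was 2.35 (SE 0.24, edgeR adjusted p = 2.75e-06) in 4h vs 0h and -2.20 (adjusted p = 2.39e-06) in rev vs 4h. Zfp978 was at 4.70, 5.88 and 7.15 CPM at 0h and stood at 22.6, 27.9, 25.3 and 35.1 at 4h, a log2 fold change of 2.24 (SE 0.23, edgeR adjusted p = 1.9e-07), and fell by 2.002 in rev vs 4h. Its 4h libraries again lay above all others. Zfp990, the first member of the interval, was at 22.9, 30.4 and 26.4 CPM at 0h and stood at 69.6, 94.5, 99.5 and 135 at 4h, a log2 fold change of 1.94 (SE 0.25, edgeR adjusted p = 3.63e-05). Its 2h libraries ran from 22.4 to 49.9 CPM and so reached above the range of 0h without reaching that of 4h. Zfp985, whose fingers are printed above, was at 10.3, 14.7 and 12.8 CPM at 0h and stood at 30.5, 35.1, 45.3 and 52.0 at 4h, a log2 fold change of 1.75 (SE 0.19, edgeR adjusted p = 7.06e-07).

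Members with few and with many shared words are set side by side here. Zfp982, with the lowest share of shared words, passed the threshold only through 4h and is given with no test. It was at 5.18, 4.08 and 4.12 CPM at 0h, 11.6, 8.89, 9.33 and 12.1 at 4h and came to between 3.95 and 5.19 in rev, a log2 fold change of 1.20 (SE 0.19) in 4h vs 0h and -1.14 in rev vs 4h. Zfp985, with the next lowest share (16.2%), had the rise of 1.75 given above. Zfp600, with the highest share, was at 5.51, 4.61 and 3.63 CPM at 0h and stood at 12.8, 11.8, 17.5 and 19.6 at 4h, a log2 fold change of 1.74 (SE 0.25, edgeR adjusted p = 1.34e-05). The cluster's count of 12 higher members in 4h vs 0h held in each of 15 fits that left out a library. It was 7 on total counts and 11 after thinning, and between 9 and 12 members were lower in rev vs 4h over the other alternatives. Correction for GC content left a median of 1.20 in 4h vs 0h. The cluster's members had a GC content between 34.6% and 39.6%, and 7 of 12 carry the letters TATTTAT in the 3′ UTR.

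Other genes of the interval were looked at beside the members. Of its other protein-coding genes, 8 were tested, and 5 were higher at 4h than at 0h: Rex2 (log2 fold change 1.98), Gm13212 (1.502), Zfp989 (1.29), Gm21411 (1.22) and Zfp987 (0.92). Zfp986 at 0.71, Zfp991 at 0.11 and Zfp993 at -0.07 did not pass edgeR's test. All 12 tested genes of the interval whose upstream window held the run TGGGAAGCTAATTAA were higher at 4h, the 9 members and 3 others. The run was chosen because the 9 members share it, after their rise was seen, so their part of this count was fixed in advance. Whether the run has a part in the rise was not tested. Zfp993 had a window without the run, and 7 tested genes, 5 of them higher, had no window in the table. Of 65 non-coding and pseudogene entries in the interval, 15 were tested, 6 were higher and 0 lower in edgeR's test. Over all genes tested, 20.5% were called higher and 18.9% lower in 4h vs 0h.

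**Figure D2:**
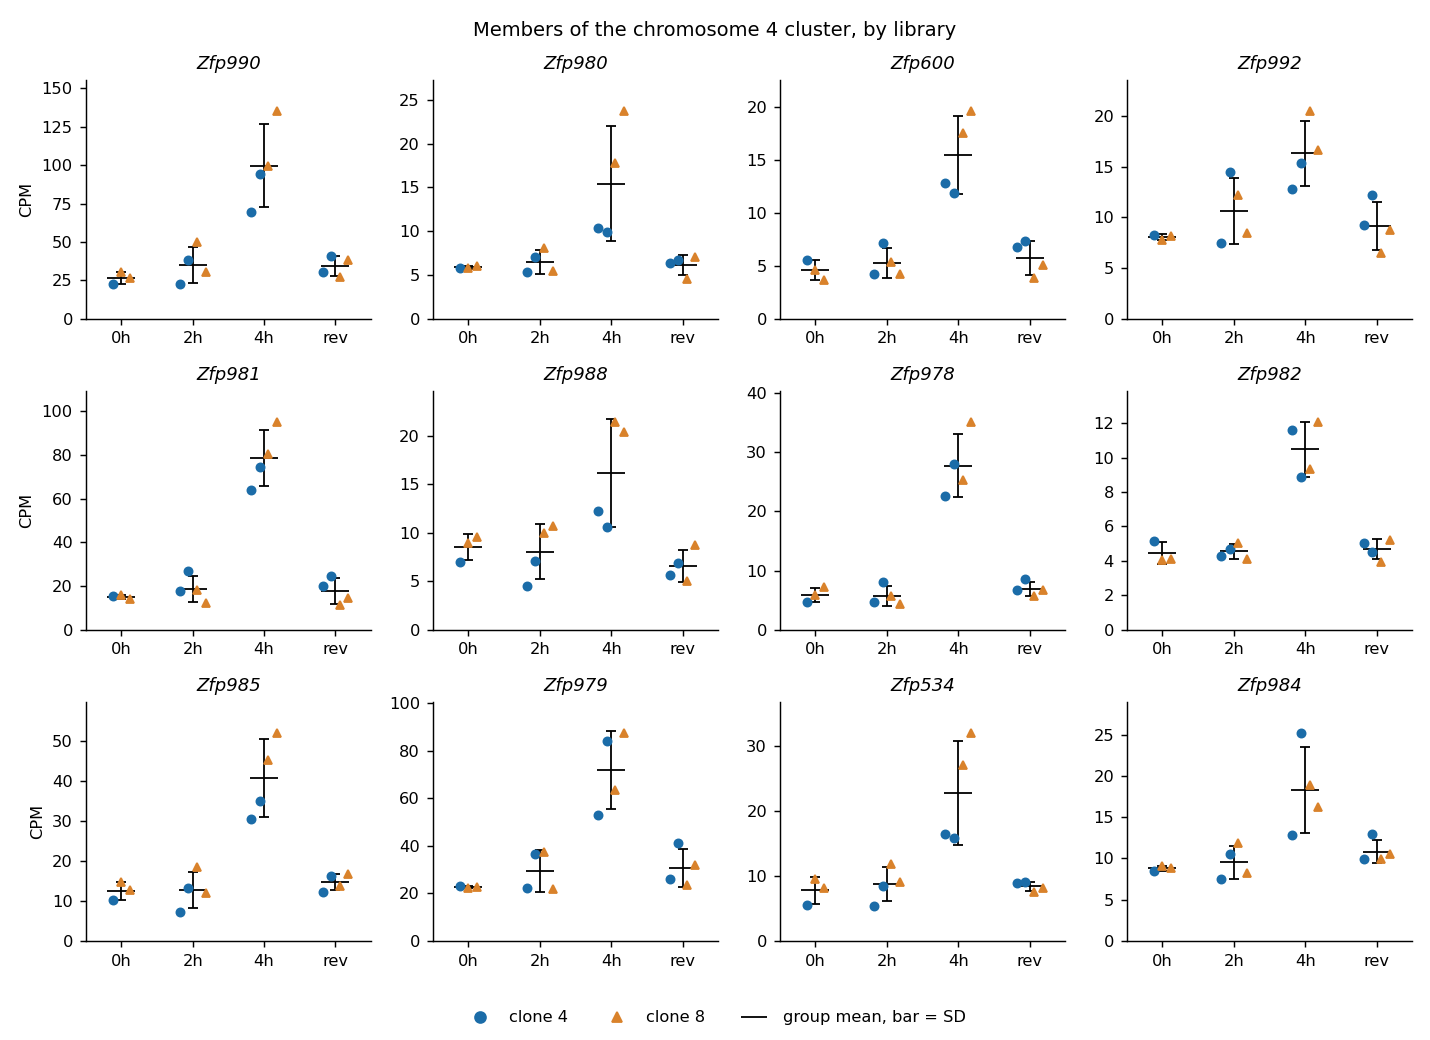
TMM-scaled CPM of the 12 members of the chromosome 4 cluster in each library at 0h, 2h, 4h and rev, with clone 4 as blue circles, clone 8 as orange triangles, and the mean with its SD in black. In each panel the 4h mean is the highest of the 4 groups and the rev mean lies near those of 0h and 2h.

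Outside that cluster, the shift of the members was smaller. In 4h vs 0h 53 of these 168 members were higher and 22 lower, beside 20.5% and 18.9% of all genes. Their median of 0.13 was 0.063 after correction for GC content and 0.013 without a filter beyond 1 count. On total counts it turned to -0.62. In rev vs 4h 14 were higher and 37 lower, beside 15.1% and 15.6% of all genes, with a median of -0.06, which turned to 0.37 on total counts. Genomic neighbourhoods of at least 4 members differed among themselves. Their counts in 4h vs 0h are to be read against the same 20.5% and 18.9% of all genes. The chromosome 7 group at chr7:41633203-43593235 (mm10; Zfp788, Zfp141, Zfp976, Zfp936, Zfp715 and Zfp719) had 4 of 6 members higher and a median of 0.84 in 4h vs 0h. The chromosome 17 group at chr17:21008903-23599487 had 4 of 10 higher and a median of 0.19, with Zfp51 among the 4. The chromosome 13 group at chr13:67538641-67792512 had 2 of 4 higher and a median of 0.36, with Zfp493 among the 2. Zfp51 and Zfp493 passed the level threshold only through 4h, so their calls support nothing. The chromosome 6 group at chr6:47835661-48445825 (Zfp398, Zfp282, Zfp212, Zfp777, Zfp746 and Zfp467) went the other way, with 3 of 6 lower and a median of -0.34. No member of the chromosome 8 group (Zfp930, Zfp868, Zfp869 and Zfp866) or of the chromosome 15 group (Zfp41, Zfp623, Zfp251 and Zfp7) was called in 4h vs 0h.

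Among members that keep imprints and silence retroviruses, Zfp57 had the largest rise of the whole set in 4h vs 0h. Zfp57 (chr17:37001163-37010635, plus strand, mm10) binds methylated imprinting control regions and holds their methylation through Trim28. Its level was 7.34, 9.89 and 10.1 CPM before 4OHT, 9.99, 11.6, 8.81 and 10.6 at 2h, 62.9, 61.0, 78.8 and 79.5 at 4h, with a return to 14.9, 12.1, 9.87 and 11.5 in rev. The 4h libraries stood far above the 11 others, which overlapped between groups. The log2 fold change was 2.97 (SE 0.17, edgeR adjusted p = 4.18e-11) in 4h vs 0h, 2.78 in 4h vs 2h and -2.53 in rev vs 4h, and 0.43 (adjusted p = 0.0821) in rev vs 0h. Zfp445, which acts beside Zfp57 at imprints, was at 60.9, 68.0 and 61.8 CPM at 0h and stood at 66.6, 46.4, 51.4 and 41.5 at 4h. Its log2 fold change was -0.32 (edgeR adjusted p = 0.047), and 8 of 15 fits that left out a library lost that call, with an adjusted p of up to 0.150 without clone8_2 of 4h. Zfp809, which recognises the primer binding site of retroviruses, was at 15.9, 19.8 and 20.6 CPM at 0h, 21.4, 26.4, 21.2 and 23.7 at 4h and came to 14.5, 14, 13.3 and 18.2 in rev. It fell by 0.63 (SE 0.14, edgeR adjusted p = 0.00185) in rev vs 4h, and 4h vs 0h gave 0.33 (adjusted p = 0.0979). Zfp568, a repressor of the placental Igf2 transcript, was at 0.07 (adjusted p = 0.652) in 4h vs 0h and fell by 0.35 (edgeR adjusted p = 0.0097) in rev vs 4h, a value of 0.04 on total counts.

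Zfp217, Zfp462 and Zfp423, which act with corepressors or in development, had their lowest mean at 2h and their highest at 4h. Zfp217, a partner of CtBP and CoREST repressor complexes, was at 35.5, 34.7 and 36.0 CPM at 0h, 23.3, 21.5, 28.1 and 30.4 at 2h, 73.3, 70.1, 64.7 and 75.4 at 4h and came to 35.8, 34.7, 37.4 and 38.6 in rev. The 2h libraries lay below all of 0h and the 4h libraries above all others. Its log2 fold change was -0.44 (SE 0.11, edgeR adjusted p = 0.0134) in 2h vs 0h, 1.02 (adjusted p = 4.43e-07) in 4h vs 0h and -0.95 (adjusted p = 4.15e-07) in rev vs 4h. The 2h call was lost without clone4_1 of 0h (adjusted p = 0.136) and without clone4_2 of 2h. Zfp462, a large nuclear protein linked to heterochromatin in ES cells, was at 93.0, 70.7 and 75.1 CPM at 0h, 60.2, 65.6, 51.1 and 45.4 at 2h, 135, 123, 117 and 138 at 4h and came to between 57.6 and 69.0 in rev. Its log2 fold change was -0.55 (SE 0.11, edgeR adjusted p = 0.0037) in 2h vs 0h, 0.67 (adjusted p = 9.33e-05) in 4h vs 0h and -0.996 (adjusted p = 3.66e-07) in rev vs 4h. The first of these lost its call without clone4_1 of 0h (adjusted p = 0.0711). Zfp423, a regulator of neural and fat cell development, went from 22.6, 22.7 and 22.3 CPM at 0h to 14.5, 15.6, 14.3 and 14.7 at 2h, 25.7, 31.6, 27.5 and 25.6 at 4h and came to 15.1, 18.6, 17.8 and 18.6 in rev. It fell by 0.61 (SE 0.12, edgeR adjusted p = 0.00251) in 2h vs 0h, rose by 0.90 (adjusted p = 2.1e-06) in 4h vs 2h and fell by 0.66 (adjusted p = 0.000119) in rev vs 4h.

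Zfp710 had the same course with a larger swing, and it is named here after its values were seen. It was at 18.0, 13.5 and 12.4 CPM at 0h, 11.6, 10.8, 8.90 and 10.6 at 2h, 54.4, 50.8, 48.5 and 50.5 at 4h and came to 14.3, 14.2, 13.3 and 14.1 in rev. The log2 fold change was -0.51 (edgeR adjusted p = 0.0115) in 2h vs 0h, 2.29 (SE 0.12, adjusted p = 4.9e-12) in 4h vs 2h and -1.87 (adjusted p = 1.54e-10) in rev vs 4h. Zfp532, known from its complex with the chromatin reader Zmynd8, was at 32.8, 34.2 and 35.1 CPM at 0h, between 30.8 and 36.1 at 2h, 156, 159, 141 and 138 at 4h and came to 46.8, 58.0, 37.9 and 42.2 in rev. Its rise of 2.09 (SE 0.11, edgeR adjusted p = 2.45e-11) in 4h vs 0h came after 2h, whose libraries overlapped with those of 0h. Zfp516, a partner of Prdm16 in brown fat, was still raised in rev. It went from 6.96, 10.6 and 11 CPM at 0h to 43.4, 46.7, 33.7 and 36.9 at 4h and stood at 35.7, 31.3, 26.5 and 24.8 in rev, with log2 fold changes of 2.02 (SE 0.17, edgeR adjusted p = 1.1e-08) in 4h vs 0h and 1.58 (SE 0.17, adjusted p = 2.97e-06) in rev vs 0h. Zfp827, which binds telomeric chromatin with the NuRD complex, was likewise still raised in rev, where it differed from 4h by 0.14 (edgeR adjusted p = 0.359). It was at 12.3, 10.9 and 12.0 CPM at 0h, 23.8, 25.2, 18.0 and 19.2 at 4h and came to 28.2, 24.8, 21 and 20.9 in rev, a log2 fold change of 0.95 (SE 0.12, edgeR adjusted p = 2.96e-05) in rev vs 0h.

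**Figure D3:**
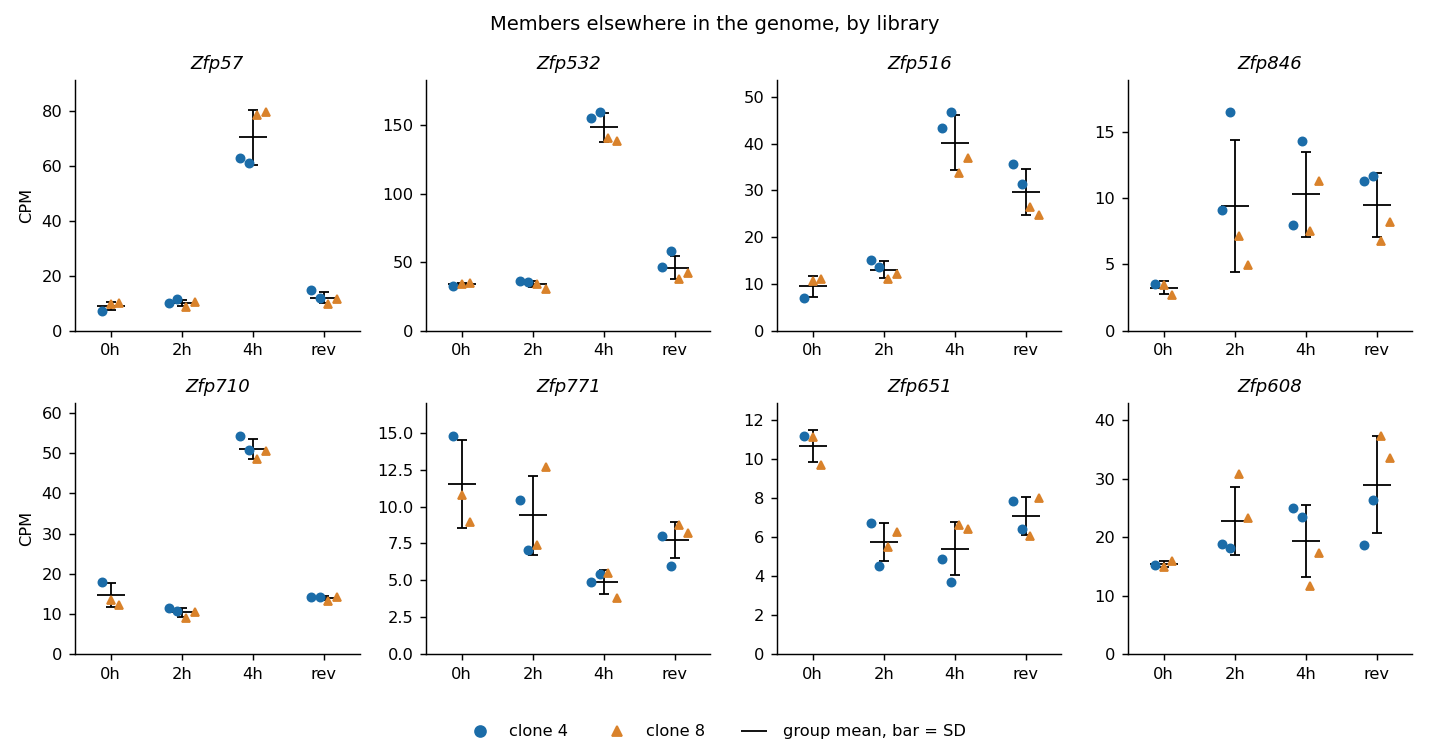
TMM-scaled CPM by library at 0h, 2h, 4h and rev for 8 members with different courses, with clone 4 as blue circles, clone 8 as orange triangles, and the mean with its SD in black. Zfp57, Zfp532 and Zfp710 peak at 4h, Zfp516 and Zfp846 are still high in rev, Zfp771 and Zfp651 fall, and Zfp608 differs between the clones.

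Members with roles in RNA handling and general transcription moved in both directions, with log2 fold changes in 4h vs 0h between -0.77 and 0.79 for those named. Zfp326, a subunit of the DBIRD complex that couples splicing to transcription, was at 13.8, 13.2 and 11.1 CPM at 0h, 23.8, 18.8, 20.5 and 26.8 at 4h and came to 22.4, 25.4, 19.2 and 19.8 in rev, log2 fold changes of 0.79 (SE 0.16, edgeR adjusted p = 0.000457) in 4h vs 0h and 0.73 (SE 0.15, adjusted p = 0.00342) in rev vs 0h. Zfp346, a binder of double-stranded RNA, was at 13.5, 12.6 and 13 CPM at 0h, between 5.43 and 10.02 at 4h and came to between 10.9 and 12.7 in rev, and fell by 0.77 (SE 0.17, edgeR adjusted p = 0.00134) in 4h vs 0h. Every 4h library of Zfp346 lay below every other library. Zfp318, needed for IgD expression in B cells, rose by 0.69 (edgeR adjusted p = 0.000215), Zfp638, a nuclear RNA-binding protein, by 0.53 (adjusted p = 0.000672) and Zfp335, part of histone methyltransferase complexes, by 0.49 (adjusted p = 0.00381) in 4h vs 0h on TMM scaling, and on total counts their values were -0.01, -0.20 and -0.25. Zfp292 rose by 0.47 (edgeR adjusted p = 0.0069) and Zfp384 by 0.57 (adjusted p = 0.00183), with -0.25 and -0.16 on total counts. The zinc finger activator Zfp143 (0.47, edgeR adjusted p = 0.0162), Zfp148 (0.44, adjusted p = 0.0277) and the spindle protein Zfp207 (0.50, adjusted p = 0.0326) passed the test in 4h vs 0h, and 3, 5 and 6 of the 15 fits that left out a library lost these calls. The largest adjusted p among those fits was 0.115 for Zfp143 and 0.153 for Zfp207, both without clone4_1 of 0h, and 0.148 for Zfp148 without clone8_1 of 0h, and on total counts the 3 values were -0.29, -0.28 and -0.24. The collided-ribosome ubiquitin ligase Zfp598 was at -0.36 (edgeR adjusted p = 0.0323) in 4h vs 0h, which 3 such fits lost, with 0.171 without clone4_1 of 0h.

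Of the members tied to pluripotency, Zfp296, an ES cell gene used in reprogramming, was at 4.37, 4.55 and 3.27 CPM at 0h, 6.11, 9.13, 7.28 and 8.29 at 4h and came to 3.78, 3.51, 3.24 and 2.91 in rev. It is one of the members that passed the threshold only through 4h, so its log2 fold changes of 0.89 (SE 0.23) in 4h vs 0h and -1.23 (SE 0.21) in rev vs 4h are given with no test. Zfp706, which promotes exit from naive pluripotency, was at -0.16 (edgeR adjusted p = 0.237) in 4h vs 0h and at 0.33 (adjusted p = 0.0132) in rev vs 4h, a call that the fit without clone8_2 of 4h ended (adjusted p = 0.0503). Zfp219 was at 54.0, 53.3 and 51.7 CPM at 0h and stood at 31.2, 27.4, 43.5 and 39.2 at 4h and fell by 0.57 (SE 0.14, edgeR adjusted p = 0.00219). Zfp91, a ubiquitin ligase of the NF-kB pathway, Zfp110, a partner of the neurotrophin receptor p75, Zfp131, Zfp260 and Zfp263 were not called in any of the 5 comparisons, with log2 fold changes in 4h vs 0h of -0.01, 0.12, -0.19, 0.28 and -0.32.

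The members that fell most from 0h to 4h were Zfp771, Zfp651, Zfp212, Zfp365, Zfp346, Zfp692, Zfp821 and Zfp941, in this order. Zfp771 was at 14.8, 10.8 and 8.96 CPM at 0h and stood at 4.89, 5.43, 5.46 and 3.77 at 4h, and fell by 1.22 (SE 0.23, edgeR adjusted p = 0.000289). Zfp651 was already down at 2h, with 11.2, 11.1 and 9.69 CPM at 0h, 6.70, 4.51, 5.49 and 6.27 at 2h and 4.89, 3.70, 6.60 and 6.41 at 4h. It fell by 0.88 (SE 0.19, edgeR adjusted p = 0.00523) in 2h vs 0h, a call lost without clone4_1 of 0h (adjusted p = 0.0830), and by 0.97 (SE 0.20, adjusted p = 0.00067) in 4h vs 0h. Zfp365, a binding partner of Disc1, was lower in clone 4 than in clone 8 in every group and fell by 0.82 (SE 0.12, edgeR adjusted p = 1.53e-05) in 4h vs 0h. Zfp212, Zfp692, Zfp821 and Zfp941 fell by between 0.70 and 0.85. At these levels the smallest 4h library held few counts per gene, and the median member had between 23 and 63.5 counts in a 4h library against 83 to 227.5 in the others. Zfp24, known for its part in myelination, was at 23.6, 32.2 and 30.0 CPM at 0h, 13.4, 20.0, 20.0 and 17.3 at 4h and came to between 27.2 and 30.1 in rev, and rose by 0.69 (SE 0.13, edgeR adjusted p = 0.000365) in rev vs 4h.

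At 2h few members were called, at shares near or above those of all genes. Zfp846 was at 3.56, 3.48 and 2.67 CPM at 0h, 9.08, 16.4, 7.15 and 4.98 at 2h, 7.94, 14.3, 7.51 and 11.3 at 4h and came to 11.3, 11.7, 6.77 and 8.20 in rev. All later libraries lay above those of 0h, and the log2 fold change was 1.36 (SE 0.25, edgeR adjusted p = 0.00194) in 2h vs 0h and 1.41 (SE 0.25, adjusted p = 0.000893) in rev vs 0h. Zfp948 and Zfp229, neighbours in the chromosome 17 group, were at 0.99 (edgeR adjusted p = 0.00539) and 0.88 (adjusted p = 0.00559) in 2h vs 0h. Without clone4_1 of 0h the adjusted p of Zfp948 was 0.106. Zfp41 (-0.82, edgeR adjusted p = 0.0156), Zfp113 (-0.70, adjusted p = 0.0264) and Zfp184 (-0.65, adjusted p = 0.0341) passed as lower, and the same library ended each call, with adjusted p of 0.358, 0.104 and 0.311. Other libraries ended them too: 2, 4 and 6 of the 15 fits that left out a library lost these calls. In rev vs 0h, Zfp444 and Zfp41 were both at -0.75 (edgeR adjusted p = 0.0173 and 0.0214) and Zfp692 was at -0.58 (adjusted p = 0.0485), and these calls too were lost without clone4_1 of 0h (0.263, 0.437 and 0.258). Of the 15 fits, 3 lost the call of Zfp444, 3 that of Zfp41 and 8 that of Zfp692.

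The members' median rose from 0h to 4h in each clone, but not every member did. Of the 180 members, 141 had the same sign in both clones in 4h vs 0h and 136 in rev vs 4h. The median log2 fold change on TMM scaling was 0.28 in clone 4, with 115 of 180 members above 0, and 0.15 in clone 8, with 106 above 0. From 4h to rev it was -0.14 in clone 4 and -0.10 in clone 8, with 70 and 78 members above 0. All 87 members called in 4h vs 0h and all 63 called in rev vs 4h had the same sign in both clones, which is in part built in, since the call pools the clones. Across the members, the log2 fold changes of the clones correlated with r = 0.83 in 4h vs 0h and 0.79 in rev vs 4h, against 0.55 and 0.49 over all genes tested. The points of each clone share libraries, so this is a description. The members were chosen by their level and all genes tested were not, and the levels were not matched. Clone 8 was above clone 4 for 20 members and below it for 11 over all groups, with 10.4% and 8.11% of all genes called.

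**Figure D4:**
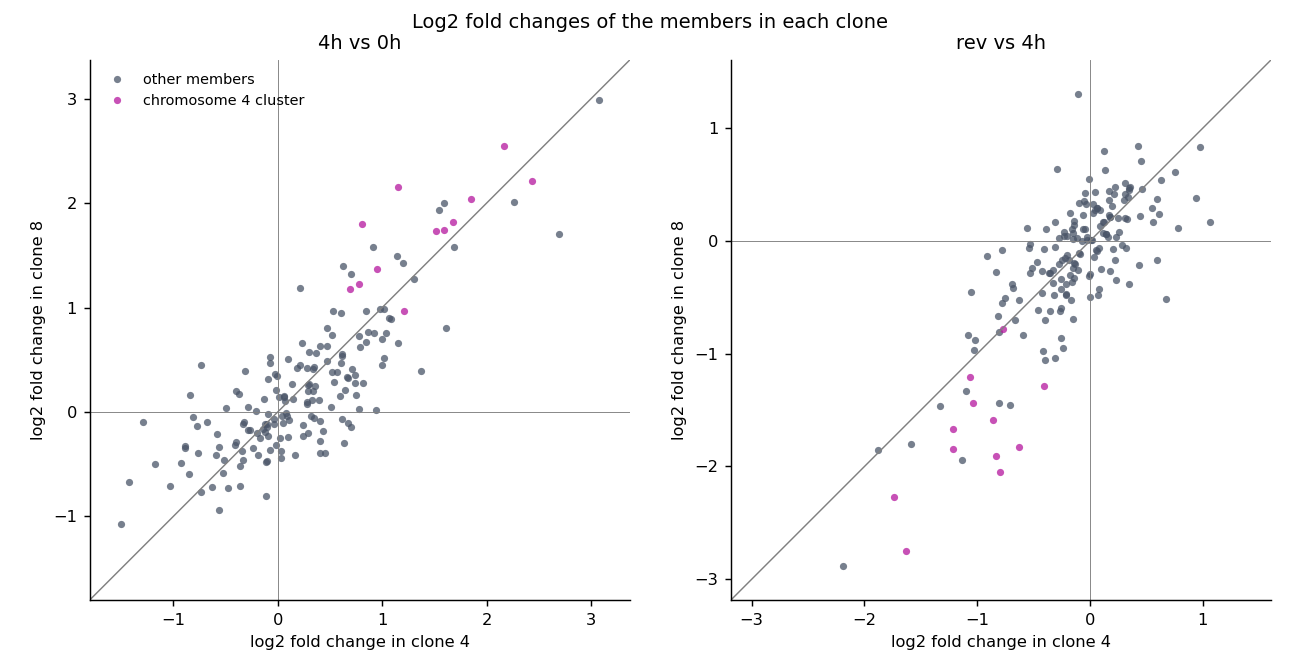
Log2 fold change (TMM scaling) of the 180 members in clone 4 on the x axis and in clone 8 on the y axis, for 4h vs 0h and rev vs 4h, with the chromosome 4 cluster in magenta. The cluster lies in the upper right corner in 4h vs 0h and in the lower left corner in rev vs 4h, and Zfp608 lies away from the diagonal.

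A different course in the 2 clones was called jointly over 3 interaction terms for 2 of 180 members, with 3.18% of all genes called. Zfp608 was at 18.8 and 18.1 CPM in clone 4 and 30.9 and 23.2 in clone 8 at 2h, at 25 and 23.4 against 11.6 and 17.3 at 4h, and at 18.6 and 26.4 against 37.4 and 33.6 in rev. In clone 4 both 4h libraries lay above both 2h libraries, and in clone 8 both lay below them. The adjusted p of edgeR's joint test was 0.0163, and clone 8 differed from clone 4 by -1.30 (adjusted p = 0.0124) in 4h vs 2h and by 1.41 (adjusted p = 0.00737) in rev vs 4h. Zfp516 was called jointly as well (edgeR adjusted p = 0.0418), with 2.69 in clone 4 and 1.70 in clone 8 in 4h vs 0h, where clone 4 has 1 library at 0h. In single comparisons, Zfp367 differed in 4h vs 2h by 1.54 (edgeR adjusted p = 0.0142), with 3.14% of all genes called, and Zfp981 in rev vs 4h by -1.12 (adjusted p = 0.0425), with 2.8% called.

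The members had a lower GC content than other genes, and the fold changes were described along it. The median GC content of the representative transcripts was 45.7% over the members and 50.8% over the 11996 tested protein-coding genes with a value that are no members. Across genes, the log2 fold change in 4h vs 0h correlated with GC content at r = -0.38 over the members, -0.26 over the members outside the chromosome 4 cluster and -0.15 over other genes. In 2h vs 0h the values were -0.45, -0.43 and -0.23, and in rev vs 0h -0.46, -0.46 and -0.20. In rev vs 4h they were 0.20, 0.00 and 0.02, so that outside the cluster no relation with GC content was seen in that comparison. Genes share the libraries and their base composition bias, so these values are descriptions.

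In the lowest quintile of GC content over all tested protein-coding genes (33.4% to 44.8%), 85 members had a median of 0.46 in 4h vs 0h on TMM scaling, with 44 higher and 3 lower. Without the chromosome 4 cluster, 73 members had a median of 0.28, with 32 higher (43.8%) and 3 lower, beside a median of 0.19 with 28.8% higher and 10.1% lower among other genes of that quintile. In the highest quintile, 23 members had a median of -0.10, with 6 higher (26.1%) and 9 lower (39.1%), beside -0.17 with 14.5% higher and 26.2% lower among other genes. In rev vs 4h the 73 members of the lowest quintile outside the cluster had a median of -0.07, with 4 higher (5.48%) and 14 lower (19.2%), and the other genes 0.04, with 16.04% higher and 13.3% lower. A correction for GC content left a median of 0.12 over all members in 4h vs 0h.

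**Figure D5:**
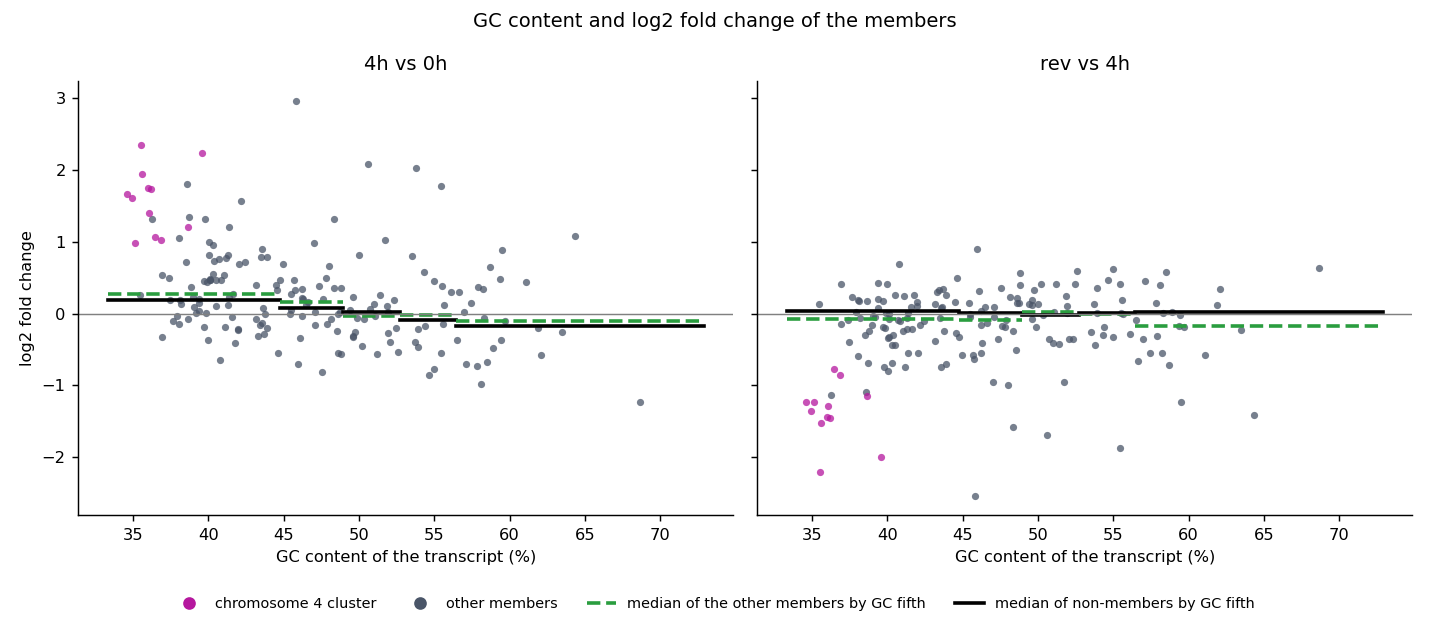
GC content of the transcript (%) on the x axis against the log2 fold change (TMM scaling) of the 180 members on the y axis, for 4h vs 0h and rev vs 4h, with medians by GC quintile of other protein-coding genes in black and of members outside the chromosome 4 cluster in green. In 4h vs 0h both lines fall from left to right, from 0.28 to -0.10 for all members outside the cluster and from 0.19 to -0.17 for other genes, and the chromosome 4 members lie above them at low GC content.

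The members were also described by their number of linker motifs. Over all genes tested, 20.5% were called higher and 18.9% lower in 4h vs 0h, and 15.1% and 15.6% in rev vs 4h. Of the 58 members without the motif, 18 were higher and 14 lower in 4h vs 0h with a median of 0.01 on TMM scaling. Of the 31 with 1 or 2, 10 were higher and 4 lower (median 0.20). Of the 91 with 3 or more, 37 were higher and 4 lower (median 0.23), and without the chromosome 4 cluster 27 of 81 were higher and 4 lower (median 0.15). Genes with 3 or more linkers that are no members, such as those with other names or a lower level, went the same way: 60 of 180 were higher and 1 lower in 4h vs 0h (median 0.51), and 2 were higher and 31 lower in rev vs 4h (median -0.19). Among 11696 other genes without the motif 2400 were higher and 2375 lower in 4h vs 0h.

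Next to these came signs of a short mRNA life. The letters TATTTAT, the core of AU-rich elements that shorten mRNA life, occurred in the 3′ UTR of 60 of 180 members (33.3%) and of 27.8% of other tested protein-coding genes. Of the 60 members with it, 25 were higher and 4 lower in 4h vs 0h (median 0.30) and 3 were higher and 18 lower in rev vs 4h (median -0.17). Of the 120 without it, 40 were higher and 18 lower (median 0.12) and 11 were higher and 31 lower (median -0.06). The 60 with the letters include 7 of the 12 members of the chromosome 4 cluster, and the 120 include the rest of it. All 12 were called as rising to 4h and as falling after it, so these 7 are among the 25 and the 18. Taken without the cluster, members with and without the letters lie closer in their shares called higher in 4h vs 0h. In rev vs 4h the share called lower is then no longer larger among members with the letters. Among other genes 3336 had the letters, with 883 higher and 481 lower in 4h vs 0h (median 0.13), and 8660 did not, with 1617 higher and 1906 lower (median -0.03). Of 29 tested genes of a list of short-lived mRNAs, 13 were higher (44.8%) and 5 lower (17.2%) in 4h vs 0h (median 0.57), beside 20.5% and 18.9% of all genes. In rev vs 4h 2 were higher (6.90%) and 8 lower (27.6%; median -0.18), beside 15.1% and 15.6% of all genes. Of 25 long-lived mRNAs, 4 were higher (16%) and 10 lower (40%; median -0.15) in 4h vs 0h, and 8 were higher (32%) and 4 lower (16%; median 0.04) in rev vs 4h. These medians are on TMM scaling, and mRNA life itself was not measured.

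The machinery that KRAB zinc finger proteins recruit was called in both directions at 4h at shares near those of all genes. Of 19 listed genes, all tested, 0 were called at 2h by edgeR, and in 4h vs 0h 5 were higher and 5 lower, 26.3% each beside 20.5% and 18.9% of all genes, with a median of 0.03. Higher were Fam208a (0.94) and Mphosph8 (0.30) of the HUSH complex, Morc3 (0.34), Smarcad1 (0.62) and Zmym2 (0.41), and lower were the heterochromatin proteins Cbx1 (-0.29) and Cbx3 (-0.34), the NuRD subunit Mbd3 (-0.39), Hdac2 (-0.36) and the HUSH subunit Pphln1 (-0.49). Trim28 stood at -0.13 (edgeR adjusted p = 0.56) and Setdb1 at 0.22 (adjusted p = 0.06). Other zinc finger families at 5 CPM or more were described by the same counts, to be read against 20.5% of all genes higher and 18.9% lower in 4h vs 0h and 15.1% and 15.6% in rev vs 4h. Of 28 Zbtb genes 9 were higher (32.1%) and 1 lower (3.57%) in 4h vs 0h (median 0.24 on TMM scaling) and 1 was higher (3.57%) and 5 lower (17.9%) in rev vs 4h, and in 4h vs 0h, of 8 Zscan genes 2 were higher and 1 lower, and of 5 Zkscan genes 2 were higher and 0 lower.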

How the data were processed

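Raw counts per gene were deposited by the authors, and per the labels' protocols 1 µg of total RNA per sample was depleted of ribosomal RNA and made into libraries with a NEBNext kit. STAR 2.5.3a, bcl2fastq 2.19.1 and the build mm10 are named in the submitters' processing notes. Which tool, annotation and strand setting gave the counts is not given in the sources used here, so overlapping and antisense genes cannot be separated: 55 of 180 members share exon positions with another gene of GENCODE M21, which held 52489 of the 52636 identifiers.

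Counts were fitted in R 4.3.3 with edgeR 4.0.16 (filterByExpr, TMM, quasi-likelihood F test, two-sided, Benjamini-Hochberg over 13451 genes, called under 0.05) with group and clone over all 15 libraries. Differences between clones were fitted with separate group terms per clone. Tables were made with Python 3.11.15. On simulated counts with 200 changed genes among 13451, the test found 194 in 4h vs 0h with 11 false calls and 193 in rev vs 4h with 14. Those 200 are far fewer than the 2755 genes called higher and 2545 called lower in 4h vs 0h in the data. The changed genes were all given the same size of change, up or down, which is larger than that of most members here. They were drawn from genes above a set expected count. How the test does with so many changed genes, with smaller changes or with lower counts was not tested.

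Named members are those with the largest changes that were called and had 1 direction in both clones, those called in the joint clone test, those with a known role, and those at the threshold. Members and lists were chosen with earlier results of these data known, and clusters, linker classes and upstream runs after values were seen. The counts of list members support nothing beyond these libraries. Alternatives covered scaling, filters, DESeq2 1.42.0, the clone term, GC content, depth, other member sets and each library left out.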

Additional observations from a re-analysis of the deposited data

Results flagged for a closer look

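Among groups of 4 libraries, 171 were searched for a library far from the others, which chance alone would raise in about 1 in 20. Such a library was found in 3 of them, fewer than that rate would give. Zfp131 at 2h was at 27.2 CPM in clone4_2 against 23.4 to 24.0 in the others, Zfp335 at 2h was at 21.6 CPM in clone4_1 against 18.4 to 18.5, and Zfp568 in rev was at 45.0 CPM in clone4_2 against 53.1 to 53.5.

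Some results differed between the clones by a test of the difference itself. Zfp608 differed over the whole course (edgeR joint adjusted p = 0.0163), with a difference of -1.30 in 4h vs 2h (adjusted p = 0.0124) and of 1.41 in rev vs 4h (adjusted p = 0.00737). Zfp516 differed over the whole course (edgeR joint adjusted p = 0.0418), Zfp367 in 4h vs 2h by 1.54 (adjusted p = 0.0142), and Zfp981 in rev vs 4h by -1.12 (adjusted p = 0.0425). The part of the clones' unequal numbers at 0h in these values was not tested.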

How the results depend on the processing

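Scaling to total counts turned the direction of the members' median log2 fold change in 4 comparisons: -0.55 in 4h vs 0h, -0.39 in 4h vs 2h, 0.32 in rev vs 4h and -0.25 in rev vs 0h, with -0.19 in 2h vs 0h. It gave 1 higher and 1 lower member in 2h vs 0h, 12 and 72 at 4h against 0h, 18 and 47 at 4h against 2h, 25 and 14 in rev vs 4h, 2 and 4 in rev vs 0h and 0 joint clone differences. Counts of an alternative that stayed near those of the main fit are in places left out below. Single members also turned on total counts: in 4h vs 0h Zfp143 (-0.29), Zfp148 (-0.28), Zfp207 (-0.24), Zfp292 (-0.25), Zfp318 (-0.0090), Zfp335 (-0.25), Zfp384 (-0.16), Zfp462 (-0.036) and Zfp638 (-0.20); in 4h vs 2h Zfp229 (-0.094), Zfp143 (-0.21), Zfp384 (-0.23), Zfp638 (-0.27) and Zfp809 (-0.10); in rev vs 4h Zfp568 (0.044).

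Thinned to the smallest total, 2h vs 0h called 3 higher and 2 lower, 4h vs 0h 43 and 11, 4h vs 2h 44 and 8 (median 0.20), rev vs 4h 2 higher and 32 lower, rev vs 0h 6 and 1, and 0 joint clone differences were called. The smaller depth by construction lowers these counts. Without a filter beyond 1 count, 2h vs 0h had 13 higher, rev vs 0h 12 lower, and medians were 0.069 against 0h and 0.055 against 2h at 4h, and 0.00048 in rev vs 4h, where the sign turned. DESeq2 called 17 lower in 2h vs 0h, 9 higher in rev vs 4h, 13 lower in rev vs 0h and 1 joint clone difference. Without the clone term, 4 were lower in 2h vs 0h, 7 higher in rev vs 4h and 1 lower in rev vs 0h. The legacy quasi-likelihood fit called 16 lower in 2h vs 0h and 13 lower in rev vs 0h, scaling by relative log expression 10 lower in rev vs 0h, and a fit of the 0h and rev libraries alone 25 higher and 17 lower. With mitochondrial genes and the 20 most abundant genes dropped, 18 were lower in 2h vs 0h, 9 higher in rev vs 4h and 14 lower in rev vs 0h.

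GC correction gave medians of 0.12 in 4h vs 0h and -0.065 in rev vs 0h and 5 joint clone differences. Same-numbered libraries did not deviate together in every pair (r from -0.19 to 0.26). Whether the numbers pair them cannot be told from these values, since what a true pairing would give is not known here. A fit with the replicate number as a block called 8 higher and 3 lower in rev vs 0h, and the block with GC correction gave 7 higher there, with medians of 0.11 in 4h vs 0h and -0.048 in rev vs 0h.

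With other member sets, a threshold of 2 CPM gave 103 higher in 4h vs 2h and medians of 0.27 both against 0h and against 2h. A threshold of 10 CPM gave 4 lower in 2h vs 0h, 43 higher in 4h vs 2h and a median of -0.15 in rev vs 4h. The 125 members with no shared exon positions gave 14 lower in 4h vs 0h, 43 higher and 12 lower in 4h vs 2h, 9 higher and 32 lower in rev vs 4h and 8 higher in rev vs 0h. The 154 members with at most 10% of shared words gave 31 lower in rev vs 4h and medians of 0.14 in 4h vs 0h, of 0.10 in 4h vs 2h and of -0.057 in rev vs 4h, and the members outside the chromosome 4 cluster 0.13 at 4h against either group. These sets are smaller or larger by construction. The shared-word limit, the set outside the chromosome 4 cluster and the legacy fit were chosen after seeing the data.

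Leaving out each library in turn gave 2 to 10 higher and 1 to 11 lower in 2h vs 0h, 50 to 65 and 13 to 25 in 4h vs 0h, 52 to 64 and 17 to 21 in 4h vs 2h, 7 to 16 and 45 to 52 in rev vs 4h, and 4 to 15 and 1 to 11 in rev vs 0h. Without clone4_1 of 0h the counts were 2 higher and 1 lower in 2h vs 0h, 13 lower in 4h vs 0h and 4 higher and 1 lower in rev vs 0h. Lower members in 2h vs 0h numbered 6 without clone8_2 of 0h, 4 without clone4_2 of 2h and 6 without clone8_1 of 2h, and higher members in rev vs 4h 8 without clone8_2 of 4h, 7 without clone8_1 of rev and 8 without clone8_2 of rev. In rev vs 0h the counts were 7 higher and 3 lower without clone8_1 of 0h, 7 and 2 without clone4_2 of rev, 8 and 1 without clone8_2 of rev, and 11 lower without clone4_2 of 4h. Medians ran from -0.047 to 0.020 in 2h vs 0h, from 0.15 to 0.19 at 4h against 0h, from 0.11 to 0.20 at 4h against 2h, from -0.14 to -0.064 in rev vs 4h and from 0.028 to 0.065 in rev vs 0h. The cause of these changes was not tested.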
